A study of Homo sapiens with 9 samples.

Results

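The genes described are 9 genes of homologous recombination, chosen by name from the pathway: EXO1, RAD54L, BRCA1, BRCA2, BARD1, RAD51AP1, BLM, FANCD2 and BRIP1. The choice was made with earlier results of these data known. All 9 were found by Ensembl identifier among the 19869 genes of the table that holds the mutant RUNX3 line. The other 2 lines are in a separate table of 24331 loci, and 1144 of its locus identifiers, all on chromosome 1, could be paired with a symbol. EXO1 and RAD54L are the 2 members among them, and the other 7 members were not analysed here in those 2 lines.

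The data are 9 RNA-seq libraries of NCI-H460, a large cell lung cancer line in which RUNX3 is inactive and K-RAS is activated. Stable lines at passage 11 were starved of serum for 24 h, and RNA was taken at 0, 8 and 16 h after adding 10% serum together with 4-OHT, the active form of tamoxifen, at 1 μM. The comparison asks how genes changed over time when RUNX3 was made active, with the vector line as the control for the inducer alone. H460-vec carries the genotype label RUNX3 inactivation, H460-ERT2-RUNX3 the label ERT2-RUNX3 WT insertion, and H460-ERT2-RUNX3-K94/171R the label ERT2-RUNX3 MT insertion. In each line the 0 h library is labelled control and the 8 h and 16 h libraries TAM. The general protocol also mentions serum without 4-OHT, and the label TAM was taken to mean that 4-OHT was present. ERT2 is a form of the estrogen receptor's ligand-binding domain that keeps a fused protein inactive until 4-OHT binds, and in K94/171R the lysines at those positions are replaced by arginine. Whether a line was 1 clone or a pool is not given in the sources used here. With 1 library per condition, no difference has a replicate check, no test was run and no p-value is given.

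Homologous recombination repairs broken DNA by copying the intact sister strand, and it works mainly in the S and G2 phases, when that sister exists. DNA ends are first trimmed to single strands, which then search for and invade the matching sequence in steps that need BRCA2 and other proteins. Many genes of the pathway are transcribed most when cells prepare for and pass through DNA replication, so their mRNA can also follow the share of cycling cells.

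The labels could be checked only in part. In the K94/171R line, RUNX3 had FPKM of 2.12 at 0 h, 0.712 at 8 h and 2.11 at 16 h, where FPKM is a fragment count corrected for the length of the transcript and the size of the library. ESR1, the gene from which the ERT2 part is derived, had 3.22, 2.04 and 3.61. These levels count any mRNA of the 2 genes, native or inserted, and neither was analysed here in the other 2 lines, so they do not show whether the insert is expressed. Of the 5 epithelial markers in this line, 3 were above an FPKM of 1, and KRT8 was the most abundant with 662, 698 and 569 at 0, 8 and 16 h. EPCAM was at most 0.313 and CDH1 at most 0.0227, so these epithelial markers were near 0. The epithelial list summed to 1637, 1561 and 1274. Of 9 markers of immune, endothelial or stromal cells found in the table, 1 reached an FPKM of 1, ACTA2, which was the most abundant with 22.9, 13.1 and 26.8. CD3E was at 0 in each of the 3 libraries, and the whole list summed to 23.5, 13.5 and 27.6 at 0, 8 and 16 h.

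The library of H460-ERT2-RUNX3 at 16 h stood apart from the others. Its FPKM values summed to 780952, against 554359 to 641519 in the other 5 libraries of its table. At 16 h, 20.0% of the 11434 expressed genes of that line fell by at least 1 on the log2 scale and 19.6% rose by as much, where expressed means a mean FPKM of at least 1 over the line's 3 libraries. After a rescaling of the libraries to equal FPKM sums, 33.0% fell and 11.2% rose. With a rescaling by the median ratio of genes between libraries, 19.1% fell and 20.5% rose. Each 16 h change of EXO1 and RAD54L in H460-ERT2-RUNX3 rests on this library, and the 8 h values are those without it.

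EXO1, an exonuclease that trims DNA ends and also works in mismatch repair, lies at chr1:242011269-242058450 on the plus strand of hg19, and RAD54L, a motor protein that acts in strand invasion, at chr1:46712133-46744152 on the same strand. Their promoters are shown because these are the 2 members with values in every library. Each printed window has 130 bases, from 110 before to 20 after the start site, and sits at chr1:242011396-242011525 for EXO1 and at chr1:46713250-46713379 for RAD54L in GRCh37, the same build as hg19. The sequences are from the RefSeq promoter table of GRCh38.p14 and were placed by an exact match to GRCh37. Capitals mark letters of an E2F motif (TTTCCCGC, TTTCGCGC, TTTGCCGC or TTTGGCGC), a CHR motif (TTTGAA or TTCGAA) or a CCAAT box (CCAAT) on either strand.
EXO1: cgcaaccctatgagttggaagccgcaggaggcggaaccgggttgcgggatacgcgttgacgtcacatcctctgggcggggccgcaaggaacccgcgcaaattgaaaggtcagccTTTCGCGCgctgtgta
RAD54L: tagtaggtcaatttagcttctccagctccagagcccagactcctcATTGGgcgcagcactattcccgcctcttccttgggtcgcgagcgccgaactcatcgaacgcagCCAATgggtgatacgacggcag
The EXO1 window holds the E2F letters TTTCGCGC, which begin 5 bases after the start site. The RAD54L window holds CCAAT on the plus strand from position -2 and on the minus strand from position -65, where it is read as ATTGG. These positions count from the start site of the printed window. RAD54L also has a window 2, in which CCAAT lies at -77 on the plus strand and at -140 on the minus strand. Among 27303 genes with a promoter window of 300 bases, 3.99% hold E2F letters, 19.5% CHR letters and 39.7% CCAAT. A match describes letters and is not evidence that a factor binds there.

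EXO1 had FPKM of 138, 106 and 84.9 at 0, 8 and 16 h in H460-vec. In H460-ERT2-RUNX3 it had 126, 68.0 and 17.4 at the same times. In the K94/171R line, whose table was made separately, it had 74.3, 90.1 and 58.9. The 2 lines of the shared table started close together and EXO1 was lower at each later time in both, with the lowest of all 9 values in H460-ERT2-RUNX3 at 16 h. H460-vec was 1.09 times as high as H460-ERT2-RUNX3 at 0 h, 1.56 times at 8 h and 4.89 times at 16 h. In bulk RNA, fewer cells in the phases that transcribe EXO1 and less EXO1 mRNA per cell cannot be told apart.

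Changes are log2 ratios of FPKM at 8 or 16 h to FPKM at 0 h of the same line, with 0.05 added to each value. The EXO1 change in H460-ERT2-RUNX3 was -0.89 at 8 h and -2.86 at 16 h, a 7.26-fold fall. Between 8 and 16 h alone it was -1.97. In H460-vec the change was -0.38 at 8 h and -0.70 at 16 h, and in the K94/171R line 0.28 at 8 h and -0.33 at 16 h. EXO1 was thus past a change of 1 in 1 line and at 1 time, but once each library is scaled to an equal FPKM sum, its 8 h change in that line is -1.07, also past 1. Rescaled by the median ratio instead, that 8 h change is -0.89. The change in H460-ERT2-RUNX3 minus that in H460-vec was -0.51 at 8 h and -2.16 at 16 h, the latter a 4.47-fold difference, which was not tested.

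The size of the EXO1 fall has to be read against the other genes of the same libraries. In H460-ERT2-RUNX3 at 16 h, 2.48% of expressed genes had a lower change than EXO1. In H460-vec at 16 h, where the change of EXO1 was smaller, 1.51% had a lower one. EXO1 was therefore near the low end of the distribution in both lines, and the distribution itself was wider in H460-ERT2-RUNX3, with its central 95% from -2.85 to 3.28 against -0.61 to 0.93 in H460-vec. For the difference between these lines at 16 h, 7.05% of 11812 expressed genes were lower than EXO1, and for that at 8 h 16.0%. In the K94/171R line at 16 h, 12.2% were lower.

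RAD54L was expressed at a lower level, with FPKM of 6.71, 10.5 and 9.07 at 0, 8 and 16 h in H460-vec. In H460-ERT2-RUNX3 it had 7.19, 5.73 and 2.70. K94/171R cells had 6.58, 8.39 and 7.60. The 0 h values of H460-vec and H460-ERT2-RUNX3 were close together, and that of K94/171R is from a table made separately. At 8 and 16 h RAD54L stood above its 0 h value in H460-vec and K94/171R and below it in H460-ERT2-RUNX3. The change was 0.64 and 0.43 at 8 and 16 h in H460-vec, and 0.35 and 0.21 in K94/171R. In H460-ERT2-RUNX3 it was -0.32 at 8 h and -1.40 at 16 h, a 2.63-fold fall. The RAD54L change in H460-ERT2-RUNX3 minus that in H460-vec was -0.97 at 8 h and -1.83 at 16 h, without a test. Of the expressed genes, 4.47% had a lower difference at 8 h and 10.3% at 16 h.

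The RAD54L locus of the shared table needs care. It runs from 46713367 to 46769038 on chromosome 1 and also covers LRRC41 on the opposite strand, over 42171 bases. The library kit keeps strand, but whether the counting used it is not given in the sources used here, and without it reads of RAD54L and LRRC41 cannot be told apart. In the K94/171R table, which lists both genes, LRRC41 had FPKM of 43.6, 54.8 and 38.9, and RAD54L stood below 10 in each library. The EXO1 locus, from 242011493 to 242053241, overlaps no other protein-coding gene.

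**Figure D1:**
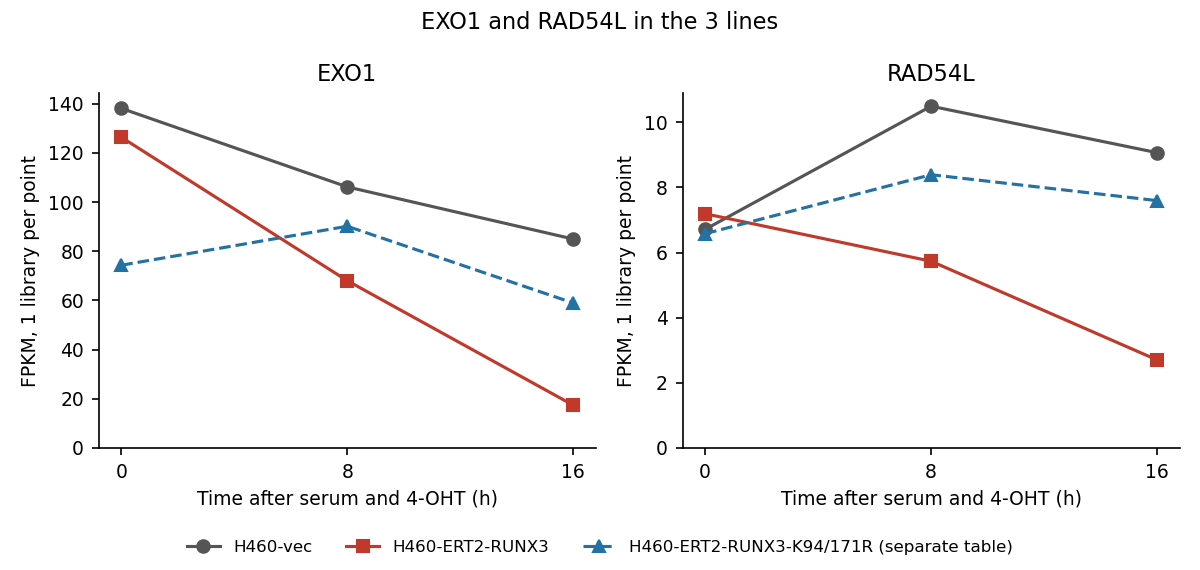
FPKM of EXO1 (left) and RAD54L (right) against hours after serum and 4-OHT, 1 library per point, with the K94/171R line dashed because its table was made separately. In H460-ERT2-RUNX3, EXO1 goes from 126 to 17.4 and RAD54L from 7.19 to 2.70 between 0 and 16 h.

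Counted at a change of at least 1, both members fell in H460-ERT2-RUNX3 at 16 h, 2 of 2, where 20.0% of expressed genes fell. At the threshold of 2 that the study used, 1 of 2, EXO1, fell, against 6.45% of expressed genes. At 8 h in that line 0 of 2 passed 1 in either direction, and 2.83% of expressed genes fell and 4.64% rose. After rescaling to the same FPKM sum, 1 of 2 fell at 8 h in H460-ERT2-RUNX3, EXO1 at -1.07. Of the expressed genes, 4.65% then fell and 3.13% rose. Rescaling by the median ratio left 0 of 2 past 1 at 8 h in that line. In H460-vec 0 of 2 passed 1 at 8 h, where 0.572% of 11360 expressed genes fell and 1.07% rose, and 0 of 2 at 16 h, where 0.475% fell and 2.10% rose. With 2 members and a fall in 20.0% of expressed genes, the count in H460-ERT2-RUNX3 at 16 h does not set the members apart.

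The ratio of EXO1 to RAD54L, both in FPKM and so per length, was lower at each later time in each line. It was 20.6, 10.1 and 9.37 at 0, 8 and 16 h in H460-vec. In H460-ERT2-RUNX3 it was 17.6, 11.9 and 6.43. The ratio in K94/171R cells was 11.3, 10.7 and 7.76. EXO1 mRNA thus exceeded RAD54L mRNA at least 6.43 times in all 9 libraries.

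In the K94/171R line all 9 members could be measured, and all 9 had a mean FPKM of at least 1. EXO1 led at every time and made up 58.1% of the summed FPKM of the 9 genes at 0 h, 61.6% at 8 h and 50.8% at 16 h. It was 5.72, 8.43 and 4.65 times as high as the next gene. The median of the other 8 was 6.53, 7.61 and 6.89 at 0, 8 and 16 h. By mean FPKM the order was EXO1 at 74.5, RAD51AP1 at 11.9, FANCD2 at 10.6, RAD54L at 7.52, BRCA1 at 7.48, BARD1 at 6.70, BLM at 5.64, BRIP1 at 3.93 and BRCA2 at 1.80. Without replicates, which neighbours in this order differ could not be judged, but the time ranges of RAD51AP1 and FANCD2 overlapped, as did those of RAD54L, BRCA1 and BARD1, and that of BLM overlapped those of BRCA1 and BARD1. EXO1 stood above 89.6% of expressed genes in mean level and BRCA2 above 6.26%.

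**Figure D2:**
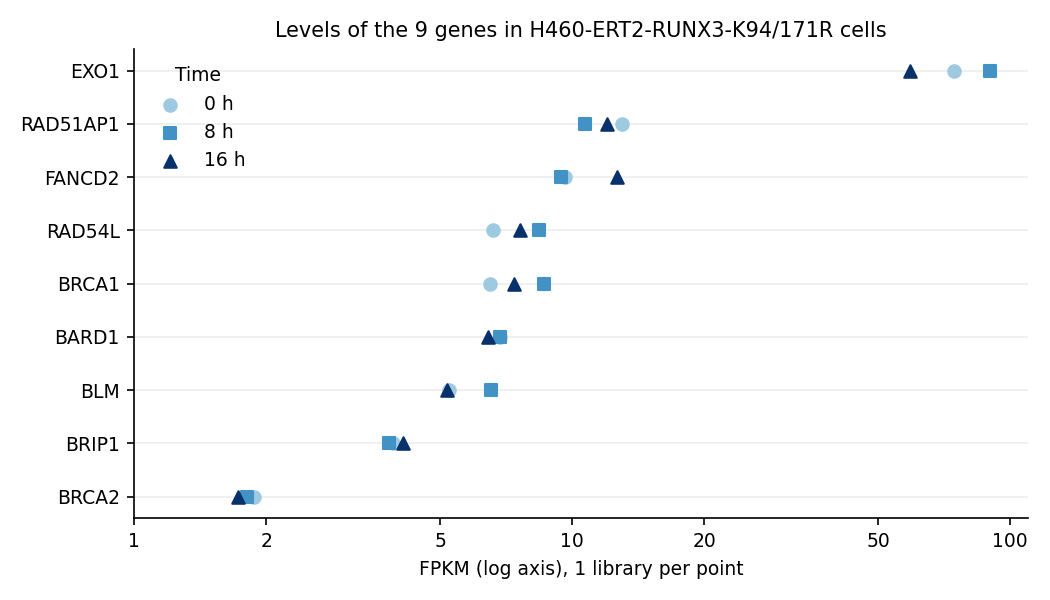
FPKM on a log axis of the 9 genes in the K94/171R line, 1 point per library at 0, 8 and 16 h, ordered by mean FPKM. EXO1, at 58.9 to 90.1, is set off from the other 8 genes, which lie between 1.72 and 13.0.

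The BRCA genes and their partner are tumor suppressors of the pathway. BRCA1, which forms a ubiquitin ligase with BARD1 and favors end trimming, had FPKM of 6.48, 8.61 and 7.37 at 0, 8 and 16 h, with changes of 0.41 and 0.18. BARD1 had 6.85, 6.83 and 6.42, with a change of -0.09 at 16 h. BRCA2, which acts before strand invasion, had 1.88, 1.81 and 1.72, with changes of -0.05 and -0.12. At 8 h BRCA1 had the highest change of the 9 members. BRCA1 and BARD1, whose proteins bind each other, had similar levels, and whether their time courses differ could not be judged from 1 library per time.

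RAD51AP1 promotes strand pairing, and its FPKM was 13.0, 10.7 and 12.0, with changes of -0.28 and -0.12. This was the lowest change of the 9 members at 8 h. BLM is a helicase that acts in end trimming and in taking joined DNA apart, and it had 5.23, 6.52 and 5.17, a change of 0.32 at 8 h. BRIP1, a helicase that binds BRCA1, had 3.89, 3.81 and 4.11, with changes of -0.03 and 0.08. FANCD2, which is loaded at DNA crosslinks, had 9.65, 9.42 and 12.7, with changes of -0.03 and 0.39. FANCD2 had the highest change of the 9 members at 16 h and EXO1 the lowest.

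No member passed a change of 1 in the K94/171R line. The count was 0 of 9 at 8 h, where 2.03% of 11105 expressed genes fell and 1.15% rose by at least 1, and 0 of 9 at 16 h, where 0.982% fell and 1.11% rose. At both times 5 of 9 changes were below 0 and 4 above, and the 9 changes lay between -0.28 and 0.41 at 8 h and between -0.33 and 0.39 at 16 h. Their median was -0.0037 at 8 h and -0.02 at 16 h, where that of all expressed genes was 0.01 and -0.01. Both medians of the members turn positive, to 0.03 and 0.07, and 4 changes near 0 turn sign, when the libraries are rescaled to the same FPKM sum. All 9 genes stayed inside the central 95% of expressed genes at both times, from -0.94 to 0.79 at 8 h and from -0.69 to 0.74 at 16 h.

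**Figure D3:**
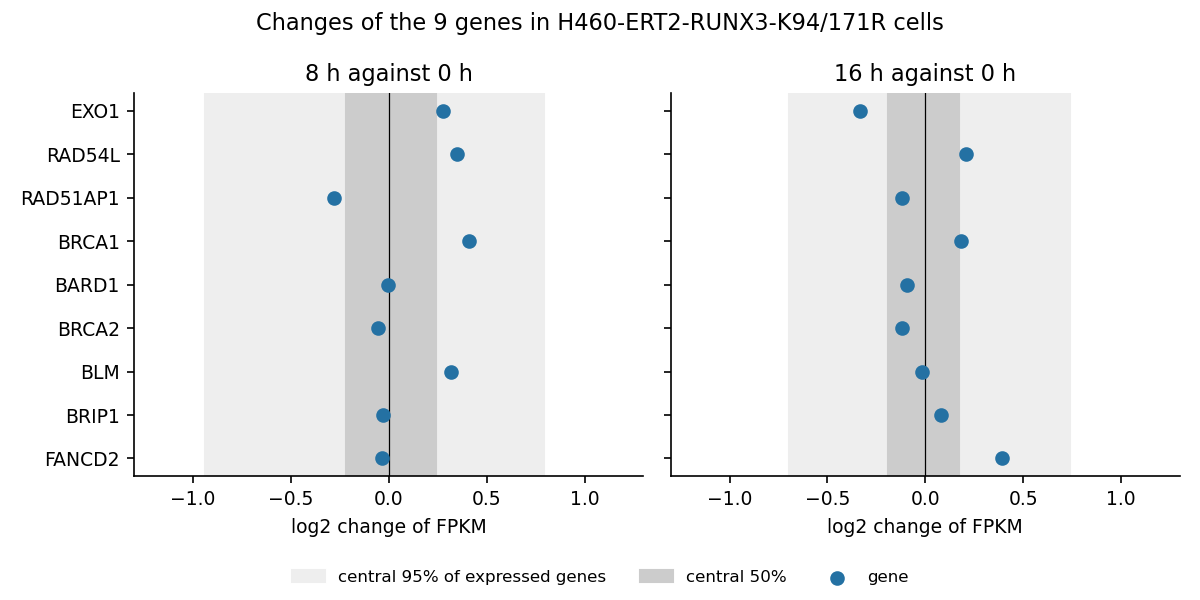
Log2 changes of the 9 genes at 8 h (left) and 16 h (right) in the K94/171R line, 1 library per time, with grey bands for the central 50% and 95% of expressed genes. BRCA1 is highest at 8 h with 0.41 and FANCD2 at 16 h with 0.39, and EXO1 is lowest at 16 h with -0.33.

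The members' changes in the K94/171R line can be set beside those of the other repair genes. Of 108 listed genes in 10 other repair lists, 107 were found, all with a mean FPKM of at least 1. At 8 h, 73 of 107 changes were above 0 and 34 below, with a median of 0.14, and at 16 h 51 were above 0 and 56 below, with a median of -0.01. Past a change of 1, 1 of 107 fell at 8 h, which was FAM175A of the BRCA1-A complex, from 10.0 to 4.93 (-1.02). At 16 h 2 of 107 rose, EME2, a partner of the MUS81 nuclease, from 1.37 to 3.08 (1.14), and C1orf86 (FAAP20), of the Fanconi anemia core complex, from 10.5 to 22.3 (1.08). The calls of FAM175A and EME2 depend on the processing, as FAM175A is at -0.89 with a pseudocount of 1 and at -0.98 when the libraries are rescaled to the same FPKM sum, and EME2 is at 0.78 with a pseudocount of 1. Among all expressed genes the shares past 1 at these times were 0.982% to 2.03%, so neither these counts nor the 0 of 9 of the members stand out.

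Partners of the members, PALB2 and RBBP8, were read in the K94/171R line. PALB2, which links BRCA1 to BRCA2, had FPKM of 4.70, 6.22 and 4.85 at 0, 8 and 16 h, with changes of 0.40 and 0.04. RBBP8, which starts end trimming before EXO1, had 9.43, 13.3 and 9.06, with changes of 0.49 and -0.06, the latter turning to 0.04 when the libraries are rescaled to the same FPKM sum. Like EXO1, RAD54L, BRCA1 and BLM, both were highest at 8 h.

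By list, the median change at 8 and 16 h was 0.13 and -0.02 for 6 genes of end resection, -0.07 and -0.39 for 6 of single-stranded DNA binding and 0.16 and 0.08 for 8 of junction processing. It was -0.12 and -0.19 for 5 genes of the BRCA1-A complex, 0.08 and 0.26 for 4 anti-recombinases, 0.14 and -0.03 for 19 of Fanconi anemia and crosslink repair, 0.09 and 0.00 for 16 of end joining, 0.21 and -0.01 for 17 of the damage checkpoint and 0.22 and -0.09 for 7 of mismatch repair. At 16 h the medians of end resection, Fanconi anemia and crosslink repair, damage checkpoint and mismatch repair turn positive under that rescaling, to at most 0.08. RPA3, a subunit of the RPA complex that covers trimmed ends, had one of the 3 lowest changes at both times (-0.63 and -0.61). The others among the 3 lowest were FAM175A and WDR48 (-0.62) at 8 h and NHEJ1 (-0.69) and BRCC3 (-0.58) at 16 h. The 3 highest were RAD9A (0.89), POLQ (0.84) and FANCB (0.72) at 8 h, and POLQ (0.79) stood behind EME2 and C1orf86 at 16 h.

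Cell cycle markers were read in the same line, and 0 of 39 G1/S and 0 of 54 G2/M markers passed a change of 1 at either time. Of the G1/S markers, 35 were above 0 at 8 h and 35 below 0 at 16 h, with medians of 0.32 and -0.29, and 6 of the 39 are also on the repair lists. Of the 4 members kept out of this list, EXO1 had 0.28 and -0.33 at 8 and 16 h, BLM 0.32 and -0.02, BRIP1 -0.03 and 0.08, and RAD51AP1 -0.28 and -0.12, so they did not all go the way of the list. Of the G2/M markers, 33 were below 0 at 8 h and 43 above at 16 h, with medians of -0.13 and 0.19. The part of the cell cycle in the members' changes was not tested.

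**Figure D4:**
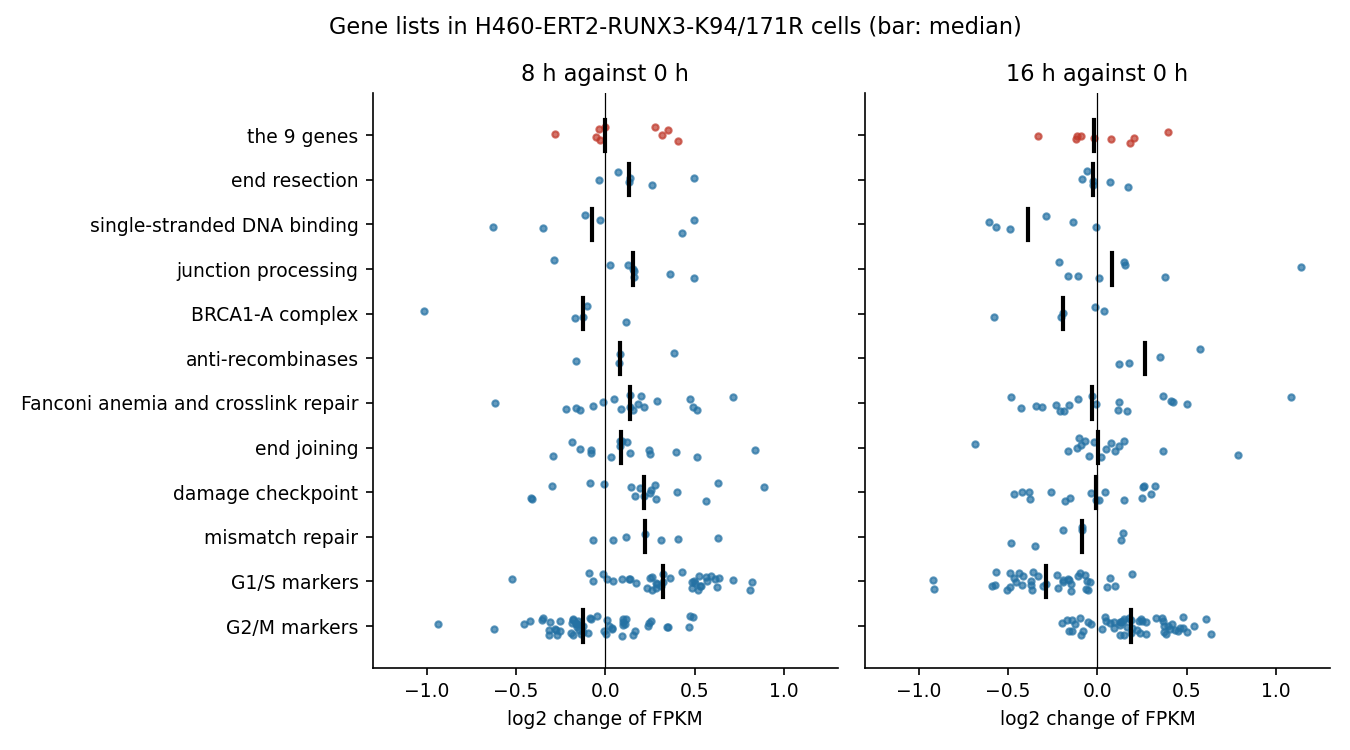
Log2 changes at 8 h (left) and 16 h (right) in the K94/171R line, 1 point per gene with a mean FPKM of at least 1 and a bar at each list's median, with points shifted vertically for legibility. The 9 genes (red) have medians near 0 at both times, and the G1/S markers go from a median of 0.32 to -0.29.

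In the lines of the shared table, 11 listed repair or cell cycle genes other than EXO1 and RAD54L could be named. At 16 h in H460-ERT2-RUNX3, 7 of the 11 fell by at least 1, with a median of -1.32, where 20.0% of expressed genes fell. Of these 7, 5 were G2/M markers, and 1 of 3 other repair genes and 1 of 3 G1/S markers fell by as much. Of the 11, 0 passed 1 in H460-vec or in K94/171R at 16 h, where the medians were -0.17 and -0.05. Among the repair genes, DCLRE1B, a nuclease of crosslink repair, had FPKM of 5.02, 3.36 and 1.95 in H460-ERT2-RUNX3 (-1.34 at 16 h). USP1, which removes ubiquitin from FANCD2, had 48.4, 44.2 and 38.4 (-0.33). INTS3, which binds single-stranded DNA in a complex, had 28.0, 24.6 and 20.1 (-0.48). Within H460-ERT2-RUNX3 at 16 h, RAD54L was thus near DCLRE1B and EXO1 below all 3. Minus the change in H460-vec, RAD54L was further down, at -1.83 against -1.07 for DCLRE1B.

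The G1/S markers DTL and NASP had 16 h changes of -1.46 and -0.53 in H460-ERT2-RUNX3, that of NASP going to -1.02 when every library is scaled to an equal FPKM sum, and USP1 is on that list too. The DTL locus of the shared table also spans INTS7, a neighbouring gene, over 95159 bases. Of 6 G2/M markers, 5 fell by at least 1 at 16 h with a median of -1.64: CDC20 (-2.71), CENPF (-2.19), CDCA8 (-1.96), KIF2C (-1.32) and NUF2 (-1.20). The exception was CKS1B, with 0.39, which becomes -0.10 when the libraries are rescaled to the same FPKM sum. Within H460-ERT2-RUNX3, EXO1 had the lowest change of these 13 genes at 16 h and RAD54L stood near the middle. Minus the change in H460-vec, CDC20 (-2.64) was below EXO1 (-2.16), and RAD54L (-1.83) was near CDCA8 (-1.86). How much of the fall of EXO1 and RAD54L goes with fewer cycling cells was not tested.

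**Figure D5:**
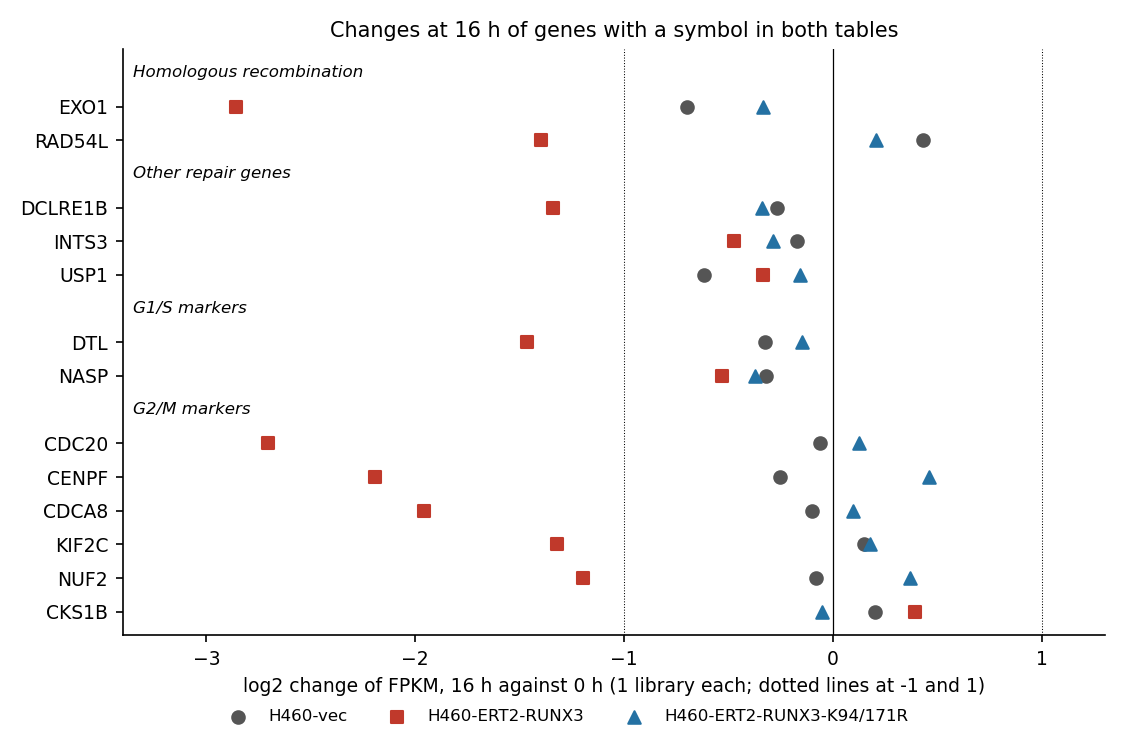
Log2 change at 16 h against 0 h of 13 genes with a symbol in both tables, 1 library per time in each of the 3 lines, with dotted lines at a change of -1 and 1. H460-ERT2-RUNX3 (squares) lies at -2.86 for EXO1 and -1.40 for RAD54L, and no gene of the other 2 lines passes a dotted line.

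Among 566 named genes with a mean FPKM of at least 1 over the 6 libraries of the shared table, those with a course most like that of EXO1 were CDC20, NIPAL3, FHAD1, IKBKE and CENPF. Likeness was the root mean square difference of log2 values centred on each gene's mean, and it was 0.22, 0.26, 0.27, 0.28 and 0.28 for these 5. Their changes at 16 h in H460-ERT2-RUNX3 lay between -2.85 for FHAD1 and -2.19 for CENPF, against -2.86 for EXO1. FPKM in that library was only 0.208 for IKBKE, 0.431 for FHAD1 and 1.10 for NIPAL3, against 11.9 for CDC20 and 13.7 for CENPF. In H460-vec at 16 h they lay between -0.26 and -0.02, against -0.70 for EXO1, so the likeness rests mainly on H460-ERT2-RUNX3. RAD54L came 65th, with a difference of 0.57, so its course was not among those nearest to EXO1.

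The promoter letters were looked up for all 9 members in windows from 250 bases before to 50 after the start site. E2F letters are in 2 of 9, EXO1 and FANCD2, against 3.99% of all genes. CCAAT is in 5 of 9, RAD54L, BRCA1, RAD51AP1, BLM and BRIP1, against 39.7%. Some genes have more than 1 window, and the CCAAT of BRCA1 was found in its window 2 only. CHR letters are in 1 of 9, BRIP1, against 19.5%. RUNX letters (TGTGGT or TGCGGT, either strand) are in 1 of 9, BRIP1, against 22.9% of all genes, and begin 24 bases after its start site. EXO1 and RAD54L lack the RUNX letters in these windows, which says nothing of other positions. The 2 members with E2F letters, EXO1 and FANCD2, had opposite signs of change in the K94/171R line at 16 h, -0.33 and 0.39. Whether such letters bear on the changes was not tested.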

How the data were processed

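RNA of 9 libraries, 1 for each line and time, was sequenced on a NextSeq500 from a TruSeq Stranded mRNA kit. After trimming (Cutadapt) and alignment to hg19 (STAR), the authors deposited FPKM per gene, and the submitters' processing notes name STAR 2.5.0, Cufflinks and Cuffdiff 2.2.1. The annotation and the strand setting are not given in the sources used here. The tables of 24331 and 19869 genes were made separately, and no change was taken across them. Mutant table identifiers were named by Ensembl identifier without version (19494 matched), with older list symbols found through RefSeq synonyms. Shared table identifiers were named from the study's supplementary sheet, whose FPKM, for 542 to 565 genes per library with FPKM of at least 1, equalled the deposited values times 1 factor per library within 1%, with 0 exceptions. Only the pairing of identifiers, symbols and loci was taken from it.

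Changes used a pseudocount of 0.05, which understates changes of low genes. Total reads are unknown. Steps of low FPKM values gave relative depths of 0.965 to 1.17 in the shared table, with H460-vec at 0 h as 1. At most 47 of 709 low genes supported the step for H460-ERT2-RUNX3 at 16 h, and at most 39 of 882 in the mutant table, too few to rely on. No test was run. Computations used Python 3.11.15, numpy 2.4.6 and pandas 2.3.3, and were tested on simulated data.

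The members and lists were chosen with earlier results of these data known. Named genes were the 9 members, RUNX3 and cell type markers, the 3 largest rises and falls of the other repair lists at 8 and 16 h in K94/171R with a mean FPKM of at least 1, every listed gene with a symbol in the shared table, the 5 genes most like EXO1, and PALB2 and RBBP8. A further gene, 1 marker and 1 list are not reported here. LRRC41 and INTS7, whose loci overlap those of RAD54L and DTL, and ESR1 were named after their values were seen. PTPRC, a marker of immune cells, was at most 0.0761 in every library. One listed repair gene and 1 cell type marker had no identifier match and were not used here. Alternatives were the pseudocount, rescaling of libraries, the expression minimum and the threshold.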

Additional observations from a re-analysis of the deposited data

Results flagged for a closer look

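For several genes the change from 0 h was above 0 in at least 1 line and below 0 in another, with 1 library behind each value, and none of these differences was tested. For EXO1 at 8 h, the highest change minus the lowest was 1.17, with K94/171R above 0 and the other 2 lines below. For RAD54L this span was 0.97 at 8 h and 1.83 at 16 h. There, H460-ERT2-RUNX3 lay below 0 and the other 2 lines above. At 8 h, it was 0.66 for USP1, 0.45 for INTS3, 0.76 for DCLRE1B, 1.54 for DTL, 1.16 for CDC20, 0.23 for KIF2C and 0.75 for CKS1B. At 16 h, it was 2.83 for CDC20, 2.65 for CENPF, 1.57 for NUF2, 1.50 for KIF2C, 2.05 for CDCA8 and 0.45 for CKS1B. The signs of KIF2C at 8 h and CKS1B at 16 h depend on how libraries are scaled.

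Within the K94/171R line, some changes had opposite signs at 8 and 16 h, which share the 0 h library. The change at 16 h minus that at 8 h was -0.61 for EXO1, -0.33 for BLM, 0.43 for FANCD2, 0.11 for BRIP1 and -0.55 for RBBP8, and these differences were not tested either. For BLM and RBBP8 at 16 h, and for FANCD2 and BRIP1 at 8 h, the sign turns when libraries are rescaled to the same FPKM sum.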

How the results depend on the processing

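Of 700 alternative values of 168 results, 680 kept their side of a change of 1 and moved by no more than 1.5 times (0.58 on the log2 scale), a limit used because there were no replicates. The other 20 did not, and 0 called changes reversed. Alternatives for named genes other than members were chosen after seeing the data. No paired analysis was run, as each condition has 1 library. Rescaling to the same FPKM sum moved the median of expressed genes in H460-ERT2-RUNX3 by -0.17 at 8 h and -0.49 at 16 h, and by -0.10 in H460-vec at 16 h. Relative to the median, the 16 h changes of EXO1 and RAD54L in H460-ERT2-RUNX3 were -2.86 and -1.39. With that rescaling the 8 h change of EXO1 in H460-ERT2-RUNX3 was -1.07, so that 1 member passed 1, the RAD54L difference from H460-vec at 8 h was -1.15, and the median of 3 G1/S markers in H460-ERT2-RUNX3 at 16 h was -1.02, the value of NASP. Also in that line, DTL (-1.10), CENPF (-1.04) and CDCA8 (-1.01) then passed 1 at 8 h. It gave 3775 falls and 1279 rises in H460-ERT2-RUNX3 at 16 h in place of 2285 and 2242, and 532 and 358 at 8 h in place of 324 and 530. Falls among genes past 1 thus went from 50.5% to 74.7% at 16 h and from 37.9% to 59.8% at 8 h in that line, from 18.5% to 28.6% in H460-vec at 16 h and from 47.0% to 34.9% in K94/171R at 16 h. Rescaling by the median ratio instead gave 2189 falls and 2339 rises in H460-ERT2-RUNX3 at 16 h, and the 8 h change of EXO1 there was -0.89. At a threshold of 2, 1 member passed in H460-ERT2-RUNX3 at 16 h. The percentage of genes past 1 in either direction, over all genes and over those with a mean FPKM of at least 5, was 5.07 and 1.02 in H460-vec at 8 h (1.64 over expressed genes), 5.99 and 1.55 at 16 h (2.57), 7.31 and 1.71 in K94/171R at 8 h (3.18), and 6.47 and 1.13 at 16 h (2.09), and the cause was not tested. A pseudocount of 1 left 29 falls and 71 rises in H460-vec at 8 h in place of 65 and 121, 30 and 130 at 16 h in place of 54 and 238, 176 and 351 in H460-ERT2-RUNX3 at 8 h, 115 and 64 in K94/171R at 8 h in place of 225 and 128, and 59 and 61 at 16 h in place of 109 and 123. In K94/171R, the alternatives moved a member's change by at most 0.092, and 4 changes near 0 turned sign.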
